A study of Homo sapiens with 8 samples.

Results

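The promoters of neuronal potassium channel, GABA receptor and glutamate receptor genes were examined in OGAP-seq libraries of RPE1 cells, a telomerase-immortalised human line from retinal pigment epithelium. In OGAP-seq, DNA fragments that carry oxidative base damage are pulled down and sequenced beside input DNA from the same cells. Members were all autosomal protein-coding genes with a symbol starting with KCN, GABR, or GRIA, GRID, GRIK, GRIN or GRM followed by a digit. Of 136 such genes in RefSeq, 107 could be matched to a window of the deposited promoter table, which holds 19957 windows. These were 78 of 94 potassium channel genes, 10 of 16 GABA receptor genes and 19 of 26 glutamate receptor genes. The unmatched genes, among them KCNMA1, GRIN1, GRIA2 and GRM6, were not analysed here. The rule works by name, and so also took in GRID2IP, which encodes a scaffold protein of synapses and not a receptor.

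Each window spans 2001 bp around a gene start, and its value is a count of DNA reads. Levels in OGAP libraries over input therefore describe the recovery of promoter DNA. They do not measure expression, and markers of cell identity could not be checked. There were 4 groups with 2 libraries each. WT cells are labelled wild type and had no doxycycline. KD cells are post-doxycycline cells with knockdown of NuMA, a protein of the nucleus and of mitotic spindle poles, called TDIF as well in the labels. Each state had OGAP and input libraries. Effects of the drug and of the depletion cannot be told apart. The labels do not say whether the libraries of a group are separate cultures, so the p-values speak only of the spread among libraries, and that spread may be technical. Nothing in the labels gives the number of clones behind the KD cells.

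Potassium channels let potassium leave or enter the cell along its gradient, which sets the resting potential and ends action potentials. GABA-A receptors are pentameric chloride channels that mediate fast inhibition, with the rho subunits known above all from the retina. Glutamate receptors mediate excitation, either as ion channels (AMPA, kainate, NMDA and the related delta class) or as metabotropic receptors coupled to G proteins. In retinal pigment epithelium, potassium channels such as KCNJ13 take part in the exchange of ions with photoreceptors.

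Libraries held 368593 to 771138 promoter reads, with the OGAP libraries shallower than the inputs. The median member window held 19 reads in each WT OGAP library and 45 and 53.5 in the WT inputs. In KD cells it held 32.5 and 24 reads in OGAP against 42.5 and 40.5 in input. Of the 107 member windows, 106 passed the filter on low counts, and the exception was KCNAB3 (2 to 12 reads per library). The windows of KCNG3, GABRB1 and KCNAB3 overlap a neighbouring window, so that their counts are uncertain. The inward rectifier genes KCNJ12 and KCNJ18 are near-identical copies, and reads could be split between them.

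The promoters at both ends of the range in WT cells are shown first, because they differ in base composition. Each sequence is the 250 bases upstream of the RefSeq gene start (GRCh38.p14), 5′ to 3′ on the strand of the gene, with CG dinucleotides in capitals. Shown are members past the test's threshold whose RefSeq promoter lies inside the counted window. The 3 with the most negative OGAP over input values were KCNQ5 (chr6:72621814-72622063, plus strand), KCNT1 (chr9:135701935-135702184, plus strand) and GRIN2B (chr12:13982135-13982384, minus strand). The 2 with positive values were KCNE2 (chr21:34363756-34364005, plus strand) and KCNK2 (chr1:215005292-215005541, plus strand).
KCNQ5: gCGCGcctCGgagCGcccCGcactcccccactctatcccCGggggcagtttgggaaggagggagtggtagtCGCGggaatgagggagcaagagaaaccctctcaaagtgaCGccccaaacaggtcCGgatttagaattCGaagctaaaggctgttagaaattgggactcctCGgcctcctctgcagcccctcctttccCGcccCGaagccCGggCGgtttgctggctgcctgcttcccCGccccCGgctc
KCNT1: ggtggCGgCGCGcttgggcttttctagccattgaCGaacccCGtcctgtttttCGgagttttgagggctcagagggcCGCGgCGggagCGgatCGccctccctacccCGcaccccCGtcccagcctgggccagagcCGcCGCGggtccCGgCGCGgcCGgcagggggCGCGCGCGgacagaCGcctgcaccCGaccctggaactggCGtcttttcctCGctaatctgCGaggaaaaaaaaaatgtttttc
GRIN2B: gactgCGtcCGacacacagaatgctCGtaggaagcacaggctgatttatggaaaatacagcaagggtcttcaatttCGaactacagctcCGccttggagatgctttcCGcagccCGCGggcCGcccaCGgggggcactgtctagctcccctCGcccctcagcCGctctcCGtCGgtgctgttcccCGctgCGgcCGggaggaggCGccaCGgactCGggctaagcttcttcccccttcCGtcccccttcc
KCNE2: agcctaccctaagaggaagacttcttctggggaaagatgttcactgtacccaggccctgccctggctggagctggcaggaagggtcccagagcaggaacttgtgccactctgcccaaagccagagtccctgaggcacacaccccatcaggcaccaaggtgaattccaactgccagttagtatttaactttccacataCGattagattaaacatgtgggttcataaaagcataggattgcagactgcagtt
KCNK2: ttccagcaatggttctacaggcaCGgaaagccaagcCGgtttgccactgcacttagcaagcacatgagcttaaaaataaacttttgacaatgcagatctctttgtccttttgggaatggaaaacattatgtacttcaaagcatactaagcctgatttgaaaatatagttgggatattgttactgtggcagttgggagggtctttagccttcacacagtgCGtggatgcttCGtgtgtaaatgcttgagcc
The upstream 250 bases held 18 CG dinucleotides in KCNQ5, 29 in KCNT1 and 21 in GRIN2B, with a G+C content of 64.0%, 66.8% and 63.6%. KCNE2 held 1 and KCNK2 held 4, at 50.8% and 42.8% G+C. With the 50 bases after the start included, the median over all windows with a RefSeq promoter was 22 CG dinucleotides. On that measure KCNQ5 (24) and GRIN2B (22) lay near the median. KCNT1 (34) lay above it, and KCNE2 (1) and KCNK2 (5) lay below it.

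In WT cells, more member promoters were under-represented than over-represented in the OGAP libraries. Of the 106 windows tested, 13 were lower and 3 higher in OGAP than in input (edgeR quasi-likelihood test, Benjamini-Hochberg adjusted p under 0.05 over all windows tested). The same test called 4.45% of all 17130 windows lower and 9.25% higher, against 12.3% and 2.83% of the members. The median log2 change was -0.32 over the members and -0.02 over all windows, and 70 of 106 members were negative. Both OGAP libraries lay below both inputs for 44 members and above them for 18, where these shares were 28.0% and 28.5% of all windows. Other autosomal neuronal channel and receptor genes (voltage-gated sodium and calcium channels, HCN channels, and nicotinic, glycine, GABA-B and serotonin receptors) had a median of -0.39, with 4 of 56 higher and 4 lower.

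Summed over windows, the members took a smaller share of promoter reads in OGAP than in input. The share was 0.563% and 0.556% in the WT OGAP libraries and 0.688% and 0.718% in WT input. In KD cells it was 0.641% and 0.585% in OGAP and 0.679% and 0.691% in input. The OGAP and input libraries did not overlap in either state. The potassium channel share was 0.423% ± 0.000926 (SD, n = 2) in WT OGAP and 0.533% ± 0.0217 in WT input. The glutamate receptor share was 0.0963% ± 0.00305 and 0.130% ± 0.000672, again with separate libraries. The GABA receptor share was 0.0399% ± 0.00229 in WT OGAP and 0.0406% ± 0.0000537 in WT input, with 1 OGAP library on each side of the inputs.

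**Figure D1:**
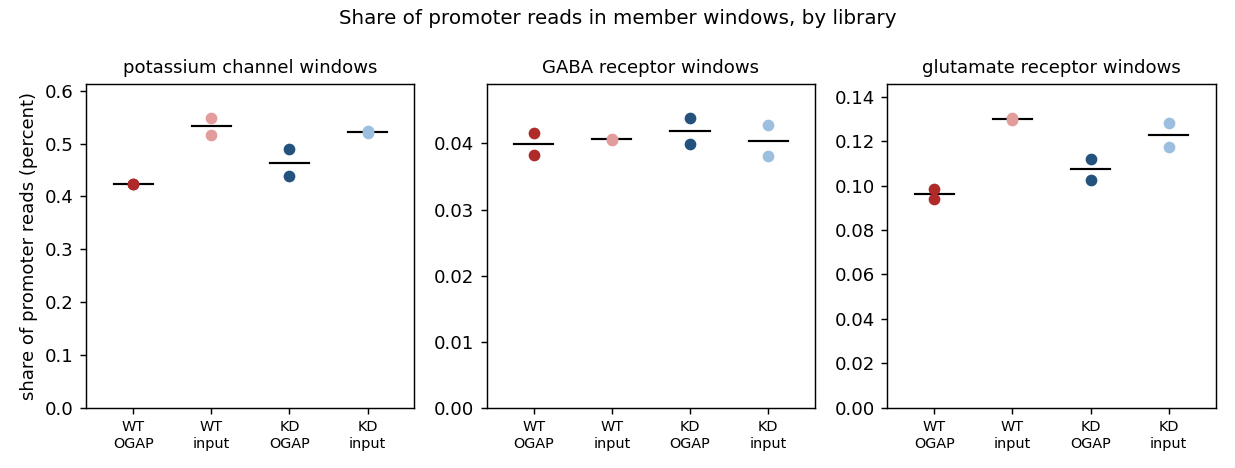
Share of each library's promoter reads that fell in member windows (y axis, percent, from 0), by group (x axis), for the 3 families. Each point is a library and each bar the mean of 2. Potassium channel and glutamate receptor windows took less of the WT OGAP libraries than of any input library, and GABA receptor windows took about 0.04% in all groups.

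Potassium channel windows had a median log2 change of -0.36 in WT, with 2 of 77 higher and 9 lower. Glutamate receptor windows had a median of -0.47, with 1 of 19 higher and 4 lower. The higher window was that of GRID2IP, which the rule counts here although it encodes no receptor. Naming windows only where the gene start lay within 100 bp left 13 glutamate receptor windows with a median of -0.10 and 8 GABA receptor windows with a median of 0.24. The 52 potassium channel windows left had a median of -0.23. None of the 10 GABA receptor windows passed the threshold, 5 were positive and 5 negative, and their median over the 10 was -0.03 (1 reached an unadjusted p under 0.05 with edgeR). The order of the potassium channel and glutamate receptor medians therefore depends on how windows were named. The differences between families were not tested, since members are not replicates.

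**Figure D2:**
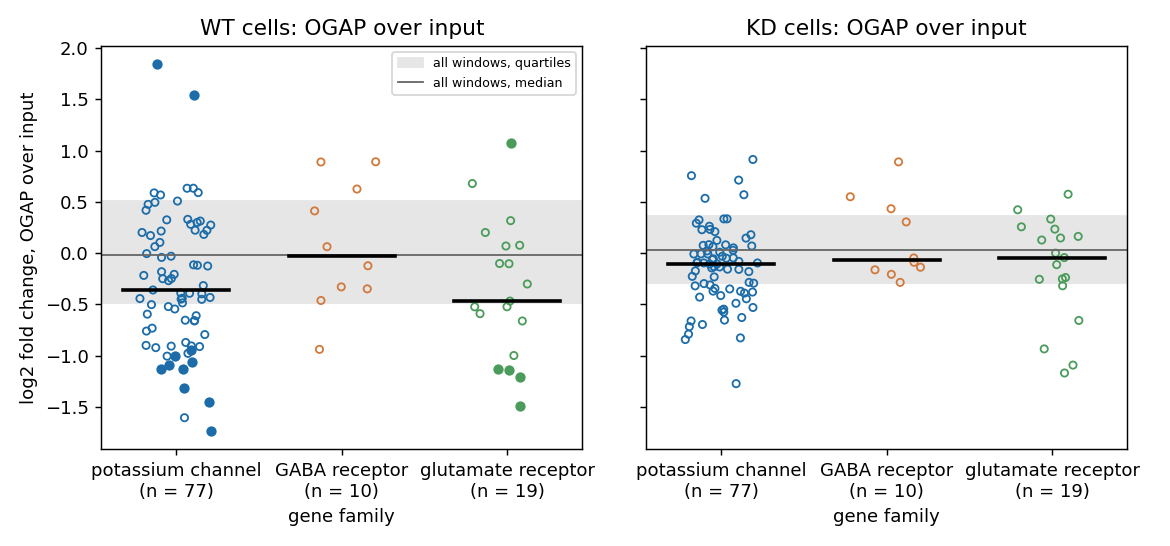
log2 fold change of OGAP over input (y axis) for each tested member window, by family (x axis), in WT (left) and KD cells (right). Filled points passed the threshold, black bars are family medians, and the grey line and band are the median and quartiles of all windows. In WT the potassium channel and glutamate receptor medians (-0.36 and -0.47) lie below that of all windows (-0.02), and in KD the 3 family medians lie between -0.11 and -0.04.

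Among potassium channels, the voltage-gated alpha subunits that form the pore had 4 of 33 windows lower in WT and none higher (median -0.36). KCNQ5, a subunit of the slow M-type current that limits repetitive firing, had 17 and 18.5 CPM (reads scaled to a common library size, with TMM factors) in WT OGAP and 54.2 and 64.9 in WT input. Its log2 change was -1.73 ± 0.47 (SE, adjusted p = 0.00735, edgeR), on 6 and 7 OGAP reads. The OGAP libraries lay below the inputs by more than the spread within either group.

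Several members listed for their known roles did not pass. KCNQ1, which carries the slow delayed rectifier of the heart, was at -0.73 ± 0.35 (adjusted p = 0.155). KCNH2, the hERG channel, was at -0.66 ± 0.36 (adjusted p = 0.216), KCNH1 at -0.36 ± 0.40 and KCNA1 at -0.03 ± 0.38. KCNC1, a fast-deactivating subunit of fast-spiking neurons, was lower at -1.13 ± 0.39 (adjusted p = 0.0391), with 48.3 and 23.8 CPM in OGAP and 61.0 and 96.0 in input. KCNG1, a silent subunit that modifies other channels, was lower at -1.09 ± 0.38 (adjusted p = 0.0404). KCNV2, a silent subunit needed in photoreceptors, was at 0.42 ± 0.43 (adjusted p = 0.551), and its OGAP libraries (34.1 and 66.1 CPM) overlapped the inputs (27.1 and 48.0 CPM).

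The KCNN, KCNT and KCNU genes, grouped by symbol as calcium- or sodium-activated channels, had a median of -0.91, with 2 of 5 windows lower. How each of these channels is gated was not checked. KCNT1, the sodium-activated Slack channel, had 39.8 and 31.7 CPM in WT OGAP and 90.9 and 105 in input (-1.45 ± 0.37, adjusted p = 0.00384, edgeR). KCNN3, a small-conductance calcium-activated channel, had 39.8 and 26.4 CPM against 70.5 and 73.9 (-1.13 ± 0.40, adjusted p = 0.0422). In both genes every WT OGAP library lay below every WT input.

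Two-pore channels, which carry background potassium current, had a median of -0.76, and 11 of 15 were negative (51.3% of all windows). KCNK3, the acid-sensitive TASK-1 channel, was lower in WT OGAP (48.3 and 52.8 CPM against 92.2 and 119, -1.06 ± 0.34, adjusted p = 0.0226). KCNK2, the mechanosensitive TREK-1 channel, was higher (48.3 and 60.8 CPM against 21.7 and 15.6, 1.54 ± 0.47, adjusted p = 0.0179, edgeR). The KCNK2 value rests on few reads, 17 and 23 in OGAP and 16 and 12 in input. The remaining 13 windows of this class did not pass. Both OGAP libraries lay below both inputs for 8 of the 15, and for 28.0% of all windows.

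Inward rectifiers had a median of -0.23 and 1 of 12 windows lower. KCNJ10, the glial Kir4.1 channel that clears potassium in retina and brain, had 56.8 and 58.1 CPM in WT OGAP and 108 and 113 in input (-0.94 ± 0.32, adjusted p = 0.0344, edgeR). KCNJ13, the Kir7.1 channel of the pigment epithelium, had 39.8 and 42.3 CPM in OGAP and 42.0 and 25.9 in input (0.27 ± 0.47, adjusted p = 0.743). One OGAP library of KCNJ13 lay between its inputs and the other just above them, so the groups overlapped.

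Auxiliary and regulatory subunits had a median of -0.13, with 1 of 12 higher and 1 lower. KCNE2, a small single-pass subunit that alters the gating of KCNQ1 and other channels, had the largest positive log2 change of all members. Its window held 125 and 137 CPM in WT OGAP against 38 and 35 in input, a log2 change of 1.84 ± 0.33 (adjusted p = 3.183e-05, edgeR). The read counts were 44 and 52 in OGAP and 28 and 27 in the deeper inputs. KCNIP3, also known as DREAM, a calcium-binding partner of Kv4 channels, was lower (56.8 and 50.2 CPM against 127 and 86.9, -1.0 ± 0.35, adjusted p = 0.0388).

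Among glutamate receptors, the NMDA subunits had a median of -0.998, and 4 of 5 were negative (51.3% of all windows). Both WT OGAP libraries lay below both inputs for 4 of the 5, and for 28.0% of all windows. GRIN2B, the NMDA subunit that prevails early in brain development, had 22.7 and 31.7 CPM in WT OGAP and 48.8 and 77.8 in input (-1.21 ± 0.43, adjusted p = 0.0446, edgeR). GRIN2C, the subunit of cerebellar granule cells, had 54.0 and 37.0 CPM against 99.0 and 99.9 (-1.13 ± 0.36, adjusted p = 0.0214). GRIN2A, the subunit that gains on GRIN2B as the brain matures, was at -0.52 ± 0.34 (adjusted p = 0.319), and GRIN3A, a modulatory subunit, at -0.998 ± 0.43 (adjusted p = 0.106).

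GRID1, a delta receptor that organises synapses through cerebellin, had the second smallest adjusted p of the members. It had 54.0 and 44.9 CPM in WT OGAP and 127 and 150 in input, a log2 change of -1.49 ± 0.33 (adjusted p = 0.000666, edgeR). GRID2IP, the scaffold protein, was higher (102 and 132 CPM against 61.0 and 50.6, 1.07 ± 0.32, adjusted p = 0.0137). Of the 6 metabotropic windows, GRM8, a presynaptic group III receptor, was lower at -1.13 ± 0.41 (adjusted p = 0.0490), with uneven OGAP libraries of 45.4 and 18.5 CPM against 73.2 and 66.2 in input. GRM5, a postsynaptic group I receptor, was at 0.68 ± 0.45 (adjusted p = 0.318). The AMPA subunit GRIA1 was at 0.32 ± 0.42 (adjusted p = 0.654), and none of the 2 AMPA and 3 kainate windows passed.

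Among GABA receptors, the rho subunits, which form the slow GABA-C type receptors of retinal bipolar cells, were positive in 3 of 3 windows (median 0.89). GABRR1 had 68.2 and 52.8 CPM in WT OGAP and 29.8 and 35.0 in input (0.89 ± 0.43, adjusted p = 0.154, edgeR). GABRR2 had 59.6 and 52.8 CPM against 27.1 and 45.4 (0.63 ± 0.45, adjusted p = 0.366). GABRR3 had 28.4 and 50.2 CPM against 24.4 and 18.2 (0.89 ± 0.53, adjusted p = 0.259). Both OGAP libraries lay above both inputs for each of the 3, and for 28.5% of all windows, but none of the 3 passed the threshold. The promoters of GABRR2 and GABRR3 held 49.3% and 33.3% G+C, in ranges where all windows had medians of 0.20 and 0.32. GABRR1 and GABRR2 are neighbours on chromosome 6.

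GABA receptor genes lie in clusters, among them those on chromosomes 4 and 15. On chromosome 15, GABRA5 was at -0.46 ± 0.43 and GABRG3 at -0.33 ± 0.37, and on chromosome 4, GABRG1 was at 0.41 ± 0.48. GABRD, the subunit of extrasynaptic receptors, was at -0.35 ± 0.35. In each of these 4 windows the change was within 2 SE of 0.

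**Figure D3:**
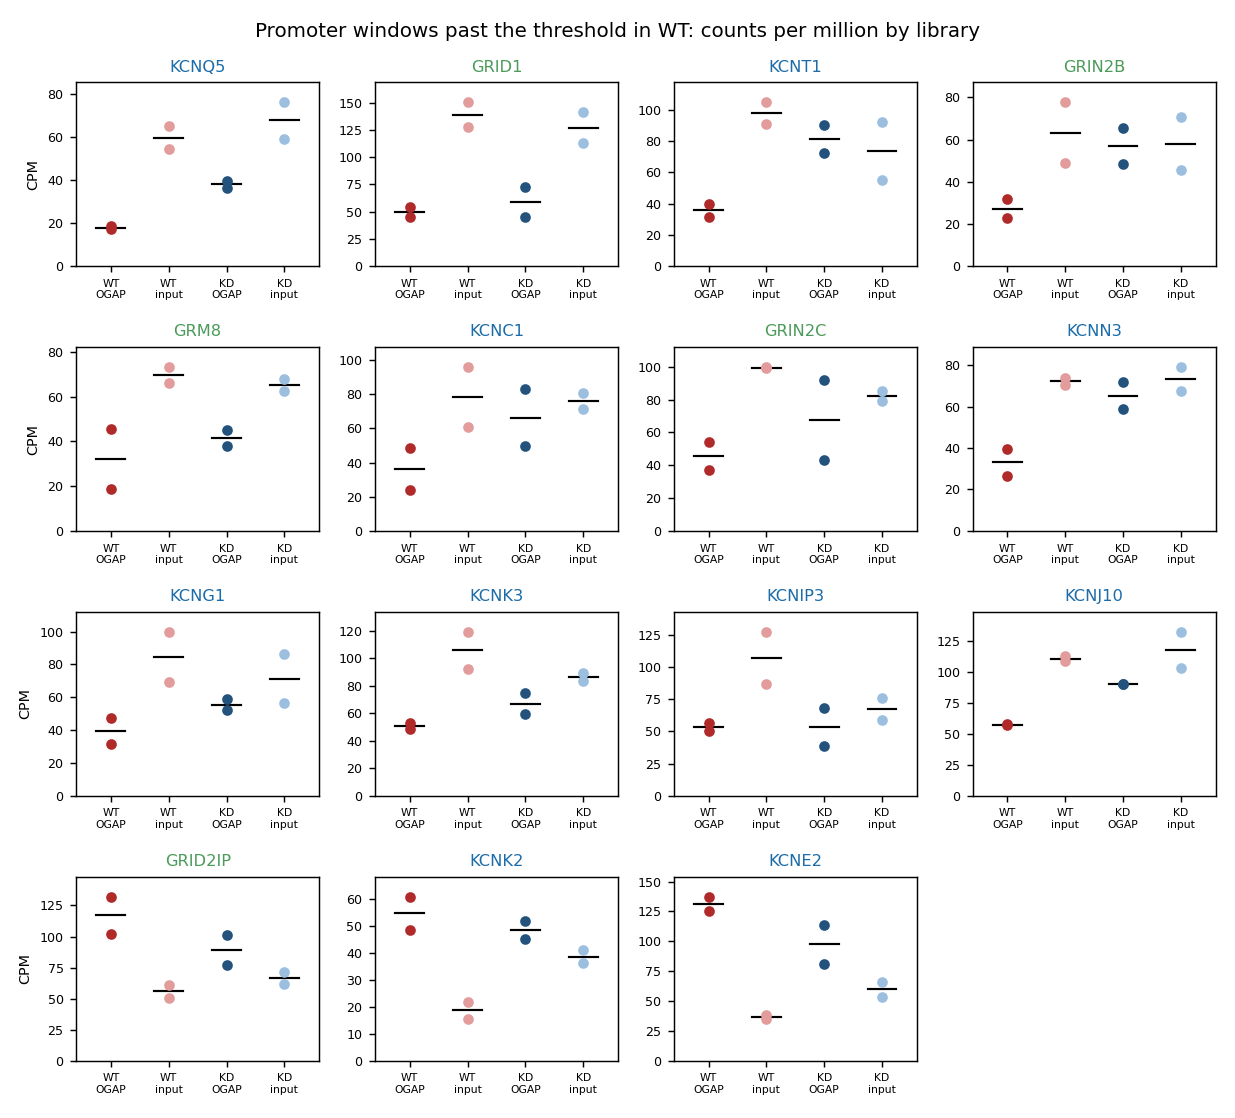
CPM (y axis, TMM-scaled, from 0) in each library for 15 of the 16 member windows past the threshold in WT, ordered from the lowest to the highest log2 change. Points are libraries, bars are means of 2, and the title colour gives the family (blue potassium channel, green glutamate receptor). WT OGAP libraries lie below WT inputs in the first 12 panels and above them in the last 3, and the KD OGAP libraries lie nearer to their inputs in most panels.

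How firmly these calls stand depends on single libraries. Each fit without a WT library leaves that group with 1 library, which is assumed to vary like the other groups, and it called fewer of all windows in both directions. Without WT OGAP 1, 3 members were higher and 7 lower (6.12% and 3.05% of all windows). Without WT OGAP 2, 1 was higher and 3 lower (4.86% and 2.05%), and without WT input 1, 3 were higher and 8 lower (5.94% and 2.85%). Without WT input 2, 1 was higher and 2 lower (3.94% and 1.19%). KCNE2 and GRID1 were called in each of these 4 fits. KCNT1 was lost without WT OGAP 2 and without WT input 2. KCNQ5, KCNC1, KCNK2 and GRID2IP were lost in the same pair of fits. GRIN2B, KCNG1 and KCNK3 were lost without WT OGAP 1, WT OGAP 2 or WT input 2, and GRIN2B also without KD input 1. GRIN2C and GRM8 were lost without WT OGAP 2 or either WT input, and GRM8 also without either KD input. KCNIP3 was lost without either WT OGAP library or WT input 1, and KCNJ10 and KCNN3 without any 1 of the 4. With DESeq2 on the same counts, KCNE2 was higher and GRID1 and KCNT1 were lower, while it called 4.33% of all windows higher and 0.829% lower. That is 0.943% and 1.89% of the members.

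In KD cells no member passed the threshold for OGAP over input. Of all windows, 0.63% were called higher and 0.105% lower. With edgeR 11 members (10.4%) had an unadjusted p under 0.05, and 12.6% of all windows. With DESeq2 no member was called and 4 (3.77%) were under it, against 6.35% of all windows. The median log2 change was -0.10 over the members and 0.03 over all windows, and 68 of 106 were negative. Both OGAP libraries lay below both inputs for 24 members and above them for 15, where these shares were 19.6% and 24.3% of all windows. The medians were -0.11 for potassium channels, -0.07 for GABA receptors and -0.04 for glutamate receptors. With 1 library left out, the GABA receptor median was 0.28 (without KD OGAP 1) and 0.27 (without KD OGAP 2), and the glutamate receptor median was -0.18 (without KD input 1) and 0.0388 (without KD input 2).

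GRID1 had the smallest adjusted p in KD (72.1 and 45.1 CPM in OGAP, 141 and 113 in input, -1.09 ± 0.30, adjusted p = 0.0565, edgeR). GRID1 fell under the threshold in 7 other fits, but in no fit that left out a KD library. The 7 include the fits without either WT OGAP library, and WT libraries are not part of this comparison. With DESeq2 the smallest adjusted p of any member was 0.0837. KCNK10, a two-pore TREK channel, was at -1.27 ± 0.43 (adjusted p = 0.147), with uneven OGAP libraries of 37.8 and 11.3 CPM against 70.6 and 53.3 in input. Without KD OGAP 1 its log2 change was -2.44 and its adjusted p = 0.0465, which rests on the 5 reads of the other KD OGAP library. That fit has no spread of its own for KD OGAP and takes it from the other groups, so the call is not counted as a result. GRIN3A was at -1.17 ± 0.42 (adjusted p = 0.174), and its OGAP libraries (21.6 and 33.9 CPM) lay below the inputs (54.7 and 68.6 CPM). KCNA10, a voltage-gated subunit, was at 0.91 ± 0.36 (adjusted p = 0.235), and KCNE2 at 0.71 ± 0.31 (adjusted p = 0.305).

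The members called in WT had values nearer to 0 in KD, where no threshold had been used to choose them. The 13 lower windows ranged from -1.09 to 0.15 in KD, with a median of -0.31, and 12 of 13 were negative. The 3 higher windows were positive, between 0.32 and 0.71. Since these windows were chosen by their WT values, the shift is given as a description, with no test. Across the 106 members, the WT and KD values had a Pearson r of 0.54 (Spearman 0.50), and across all windows 0.54 (0.50). The points share a model and window composition, but the WT and KD values share no library.

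**Figure D4:**
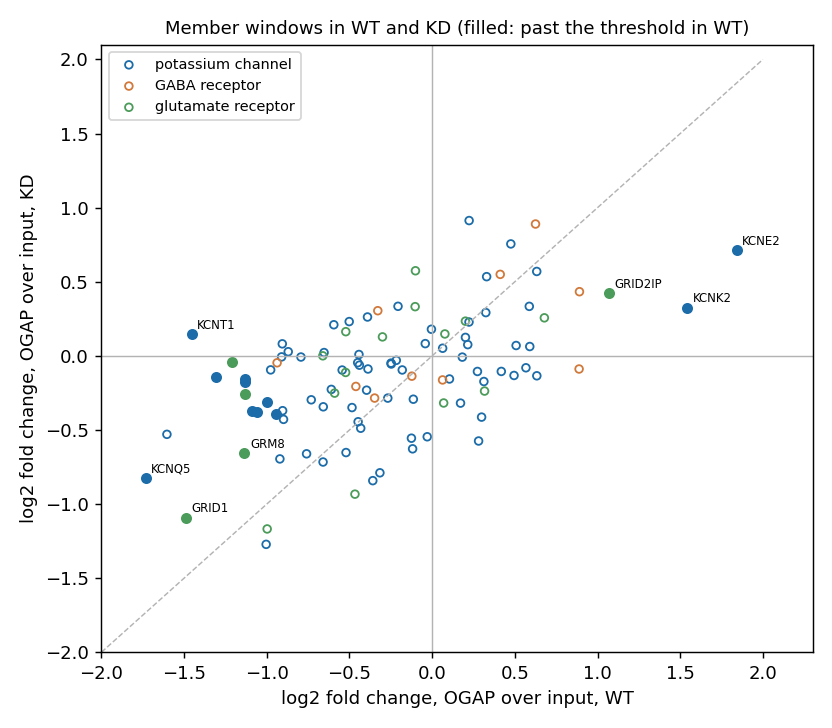
log2 fold change of OGAP over input in WT (x axis) and KD cells (y axis) for the 106 tested member windows, coloured by family. Filled points passed the threshold in WT, the dashed line marks equal values, and 7 of the filled points are named. The 13 filled points at the left lie above the dashed line and the 3 at the right lie below it.

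The comparison of KD with WT asks whether recovery of the promoter changed with the knockdown. None of the 106 members passed in the OGAP libraries, against 0.035% of all windows by edgeR. An unadjusted p under 0.05 was found for 10 members (9.43%) and 10.6% of all windows. DESeq2 called 0 members, and 5 (4.72%) were under it, against 5.24% of all. The median was 0.05 over the members and 0.01 over all windows. The interaction, which is the change of OGAP over input from WT to KD, was past the threshold for none of the members and 0.00584% of all windows by edgeR. Here 5 members (4.72%) and 8.14% of all windows had an unadjusted p under 0.05, and DESeq2 called 0 members, with 2 (1.89%) under it against 3.44% of all. Its median was 0.17 over the members and 0.02 over all windows, with 64 of 106 positive. By family it was 0.16 for potassium channels, 0.10 for GABA receptors and 0.40 for glutamate receptors. The glutamate value was 0.0329 with the gene start within 100 bp, 0.0709 within 2000 bp and 0.0777 without KD OGAP 1. These comparisons share the WT OGAP libraries with the WT comparison, so that a window low there is more often positive here.

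KCNT1 had the smallest p in both comparisons. Its KD OGAP libraries held 90.1 and 72.2 CPM, above the 39.8 and 31.7 of WT OGAP (1.19 ± 0.39, adjusted p = 0.260, edgeR). Its KD inputs were uneven at 92.2 and 54.8 CPM, and the interaction was 1.60 ± 0.49 (adjusted p = 0.327). GRIN2B held 48.7 and 65.5 CPM in KD OGAP (1.04 ± 0.45 against WT, adjusted p = 0.390). For both genes both KD OGAP libraries lay above both WT OGAP libraries. That held for 21.7% of the members and 19.6% of all windows. The differences failed the correction over all windows, and both genes had been called for low WT OGAP.

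KCNE2 moved the other way, with 114 and 81.3 CPM in KD OGAP (-0.42 ± 0.31 against WT, adjusted p = 0.663) and an interaction of -1.13 ± 0.46 (adjusted p = 0.517). GRIK4, a kainate subunit with high affinity for glutamate, was at -0.91 ± 0.43 in OGAP (adjusted p = 0.435). KCNK5, an alkaline-activated two-pore channel, was at -0.74 ± 0.36 (adjusted p = 0.447). GABRR3 had an interaction of -0.98 ± 0.74 (adjusted p = 0.762), and no GABA receptor window reached an unadjusted p under 0.05 in either comparison.

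Input libraries give the level of promoter DNA before the pull-down. None of the members and 0.0% of all windows differed between KD and WT input by edgeR. An unadjusted p under 0.05 was found for 8 members (7.55%) and 4.41% of all windows, and DESeq2 called 0 members, with 3 (2.83%) under it against 1.24% of all. The median was -0.05 over the members and -0.01 over all windows. GRIK4 had the lowest p, with 78.7 and 90.8 CPM in WT input and 28.8 and 42.7 in KD input (-1.25 ± 0.35, unadjusted p = 0.000632, adjusted p = 0.999, edgeR). KCNK16, a two-pore channel of the pancreas, was at 0.95 ± 0.33 and KCNQ1 at -0.85 ± 0.33. The inputs of KCNK2 and KCNE2 were also higher in KD than in WT, by 1.04 ± 0.46 and 0.71 ± 0.34 on the log2 scale, and KCNIP3 was at -0.66 ± 0.30. For KCNK2 and KCNE2 the smaller OGAP over input value in KD therefore came with a larger input. The log2 change of OGAP from WT to KD was -0.18 ± 0.44 for KCNK2 and -0.42 ± 0.31 for KCNE2. The KCNK2 change in OGAP was thus smaller than its SE, and its WT and KD OGAP libraries overlapped. The part of the input in these results was not tested.

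Base composition moved with the WT values. A RefSeq promoter (250 bases before to 50 after the gene start) inside the counted window was found for 65 of 106 members and for 9852 of all windows tested. The median G+C content was 65% in the members and 63.0% in all, with a median of 19 and 22 CG dinucleotides. By family the median G+C content was 65% for potassium channels, 50.8% for 4 GABA receptor promoters and 68.3% for 11 glutamate receptor promoters. The 8 members lower in WT that had a promoter held a median of 31.5 CG dinucleotides, and the 2 higher ones, KCNE2 and KCNK2, held 1 and 5. The number of CG dinucleotides and the WT log2 change had a Pearson r of -0.50 over 65 members (Spearman -0.56) and -0.31 over all windows (Spearman -0.34). In KD these were -0.29 and -0.26 (Pearson). These are correlations across genes of shared libraries, and genes are not independent replicates.

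Within ranges of G+C content the members could be set beside windows of like composition. At 55 to 65%, 2 of 15 members (13.3%) were lower in WT, and 2.47% of all windows. At 65 to 75%, the counts were 4 of 22 members (18.2%) and 6.16% of all windows. At 75% or more, they were 2 of 11 (18.2%) and 13.1%. Below 45%, 0 of 5 members were lower and 1 higher (0.379% and 11.3% of all windows). At 45 to 55%, 0 of 12 were lower and 1 higher (1.23% and 10.8%). The median log2 change at 55 to 65% was -0.25 in the members and 0.01 in all windows, at 65 to 75% it was -0.49 and -0.25, and at 75% or more -0.50 and -0.48. Below 45% it was 0.51 and 0.32, and at 45 to 55% it was 0.30 and 0.20. The members' median was therefore below that of all windows between 55 and 75% G+C, close to it at 75% or more, and above it under 55%. The part of G+C content in the calls was not tested.

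The letters TATAAA, the core of the TATA box, were found on the sense strand of 3 of 65 member promoters (4.62%) and of 7.56% of all promoters. Members were long genes, with a median RefSeq length of 49505 bp against 25676 bp for all windows with a name. The glutamate receptor genes reached a median of 372100 bp, potassium channel genes 29277 bp and GABA receptor genes 71663 bp. The windows cover only the first part of these genes.

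**Figure D5:**
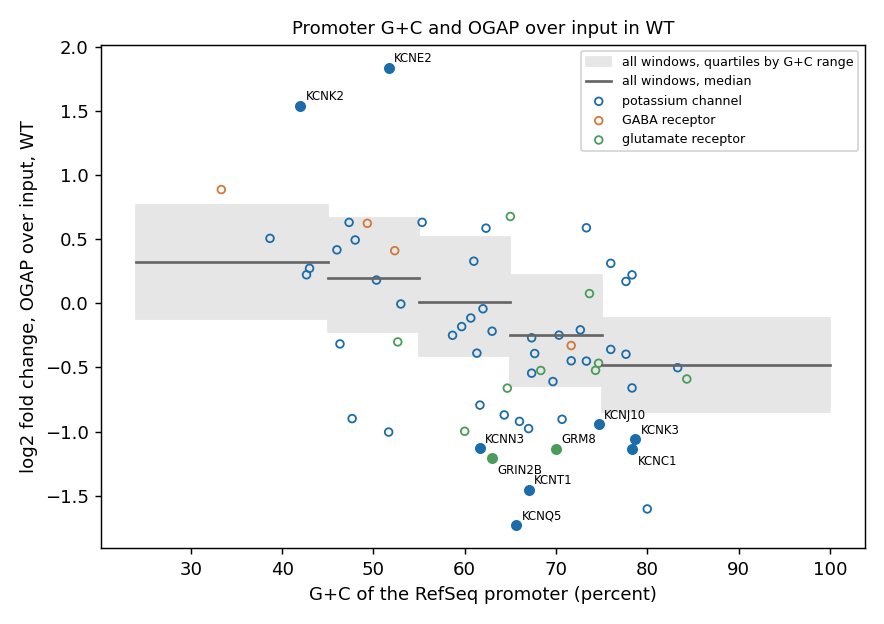
log2 fold change of OGAP over input in WT (y axis) against the G+C content of the RefSeq promoter in percent (x axis) for the 65 member windows with a promoter. Filled, named points passed the threshold, and grey lines and bands are the median and quartiles of all windows in 5 ranges of G+C content. The 8 filled points that are low lie at 61.7% G+C or more, and KCNE2 and KCNK2 at 51.7% and 42.0%.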

How the data were processed

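OGAP and input DNA of WT and KD cells was sequenced in 8 libraries. The authors deposited whole-number counts of reads per promoter window; per the submitters' processing notes, build hg38 was used with MACS2, featureCounts, bedtools and BWA (0.7.17-r1188). The sources used here give no counting settings. Coverage profiles were not used. The table holds Ensembl identifiers without symbols, so windows were named by position: exactly 1 protein-coding RefSeq gene (GRCh38.p14) of the same strand had to start no more than 500 bp from the centre. For 4210 genes the strand was taken from the window. This named 15375 of 19957 windows (77.0%).

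The test on the deposited counts was edgeR's (4.0.16, R 4.3.3) with TMM, filterByExpr, a quasi-likelihood fit, 4 group means and all 8 libraries. Benjamini-Hochberg adjustment was over 17130 windows. The procedure was also run on simulated counts, where only windows of at least median level were changed. That run does not cover calls on windows with fewer reads. The SE is the log2 change divided by the square root of F. DESeq2 1.42.0 was an alternative. Replicates differed by more than sampling noise. Members, lists and named genes were chosen with earlier results of these data known. Named genes are those past the threshold, the 2 of lowest p per family, side and comparison, and fixed genes known for a role in retina or as main subunits. Values of some member genes are not reported here.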

Additional observations from a re-analysis of the deposited data

How the results depend on the processing

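No result changed sign among the calls. The 16 members called for WT OGAP over input became 3 with DESeq2 and 3 to 17 when 1 library was left out, while the share of all windows called lower went from 4.45% to 0.829% with DESeq2 and as low as 1.19% without WT input 2. It was 14 to 17 under RLE or upper quartile scaling, other count filters, without overlapping windows, without chromosomes 10 and 12, or with only the groups compared. For KD OGAP over input, 0 became 1 under upper quartile scaling, without a count filter, with at least 10 reads in every library, without overlapping windows and with only the groups compared (GRID1 each time), and 0 to 1 when 1 library was left out. The other 3 comparisons gave 0 members under every setting run. With a replicate block the WT count was 14 (GRIN2B and GRM8 were lost) and the others stayed at 0. Libraries of the same number did not deviate together from their group means (r from -0.040 to 0.024). With 2 libraries per group and few reads per window, this cannot show whether they come from shared material.

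Family medians in WT, with the gene start within 100 bp, were -0.23 for potassium channels, 0.24 for GABA and -0.10 for glutamate receptors. With 1 library left out they ranged from -0.40 to -0.20 for potassium channels, -0.16 to 0.12 for GABA and -0.58 to -0.34 for glutamate receptors. In KD the left-out ranges were -0.10 to 0.28 for GABA and -0.18 to 0.0388 for glutamate receptors. For KD against WT in OGAP they were -0.0432 to 0.12 for potassium channels, -0.15 to 0.0512 for GABA and -0.0743 to 0.36 for glutamate receptors, and the GABA median within 100 bp was -0.0531. The glutamate interaction median was 0.0329 within 100 bp, 0.0709 within 2000 bp and 0.0777 to 0.52 with 1 library left out. The cause of these shifts was not tested. WT OGAP windows of members called ranged from 6 to 52 reads, which limits what could be called.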
